A study of Drosophila melanogaster with 2 samples.

Results

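Dpr, Beat and Side proteins are cell surface and secreted proteins of the immunoglobulin superfamily in *Drosophila*. The genes were taken from the expression values of 13623 genes by their symbols, as dpr or dpr with a number, as a symbol starting with beat-, or as side. This gave 35 genes, of which 20 were Dpr genes, 14 were Beat genes and 1 was side. Nuclear RNA of glia and of GNP cells (*gcm*-expressing neural progenitors) was compared, with 1 library of each, so no difference has a replicate check and no test was made. The glial nuclei came from embryos 12 to 14 h after egg laying that carried repo-Gal4 together with UAS-3xFLAG-blrp-mCherry-RanGap over Tm3B. The GNP nuclei, which the labels call early glial cells, came from embryos of 5 to 7 h that carried gcm-Gal4 and UAS-mCDGFP over cyo. They also had the transgene UAS-3xFLAG-blrp-mCherry-RanGap, which both lines share. These genotypes are those of the labels. The study's methods name the balancer of the glial line Tm3, give the GNP line without cyo, and say that the embryos came from selfcrosses of each line. In both lines Gal4 drives a FLAG-tagged protein of the nuclear envelope, and tagged nuclei were pulled with FLAG beads from homogenates of whole cross-linked embryos. Cell type, embryo age and genotype differ together between the libraries and cannot be told apart. The gene *gcm*, whose control elements drive the tag in GNP cells, is also active in blood cell precursors.

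Dpr proteins are named after *dpr*, the gene for a defective proboscis extension response to salt, and each carries a pair of immunoglobulin domains. They bind proteins of the DIP family (Dpr-interacting proteins), and matched Dpr and DIP proteins on neurons, or on a motor neuron and its muscle, help the cells to choose synaptic partners. Beat proteins are named after *beaten path*, now *beat-Ia*, which motor axons need in order to leave their nerve bundle for the muscles. Beat-Ia binds Side (Sidestep), a surface protein on the cells along the path of the motor axons, and further Beat proteins bind paralogs of Side. Both systems are known best from neurons and their targets. In the total nuclear RNA analysed here, a higher level may come from more nuclei that express a gene or from more RNA in each nucleus, and these cannot be told apart.

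Most genes of both families were higher in the glia library. On the scale log2(FPKM + 1), in which FPKM is the number of fragments scaled to the length of the transcript and to the number of mapped reads, 22 of the 35 genes stood at least 2-fold higher in glia, and 0 stood at least 2-fold lower. Over all 13623 genes, 21.2% stood at least 2-fold higher in glia and 16.4% at least 2-fold lower. The 14 Dpr genes above this limit had log2 changes of 1.09 to 2.55, and the 8 Beat genes had changes of 1.20 to 2.68. The gene *side* lay under the limit, with a log2 change of 0.70. The median log2 change was 1.41 for the Dpr genes, 1.32 for the Beat genes and 0.04 for all genes. A limit of 4-fold was passed by 6 of the 35 genes, *dpr*, *dpr7*, *dpr13*, *beat-Ia*, *beat-IIb* and *beat-VI*, against 8.46% of all genes. In plain order of the FPKM values, 33 of the 35 genes were above GNP in glia, against 52.8% of all genes, and the exceptions were *dpr6* and *beat-VII*.

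**Figure D1:**
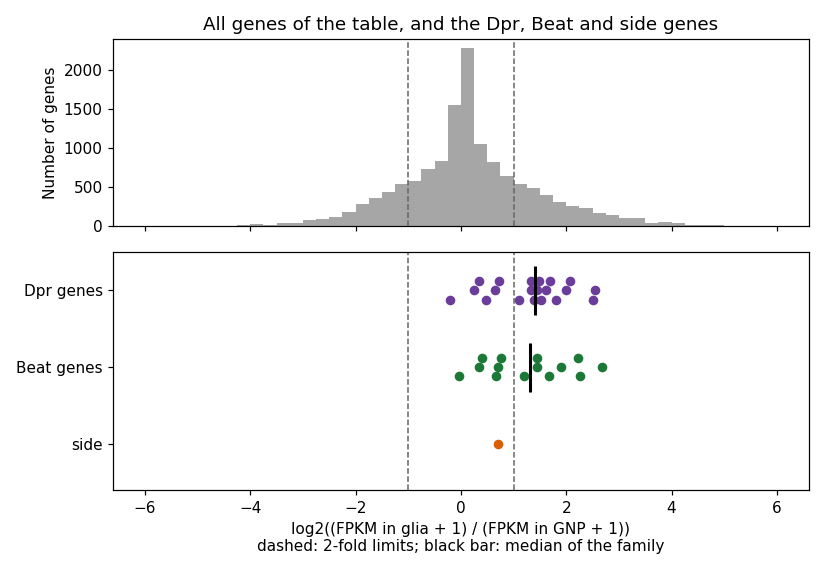
The upper panel shows how many of all 13623 genes fall at each log2 change between the libraries, and the lower panel shows each Dpr gene, Beat gene and *side* as a point, with a black bar at the family median and dashed lines at 2-fold. The family medians stand at 1.41 and 1.32, right of the upper 2-fold line, while most genes of the table lie between the lines.

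These genes were low in both libraries. Their median level was 3.00 FPKM in glia and 0.48 FPKM in GNP, where the median of all genes was 8.22 FPKM in glia and 5.85 FPKM in GNP. Only 8 of the 35 genes were above the median gene in glia and 2 in GNP. In GNP 26 of them were under 1 FPKM, and in glia 7 were. A pseudocount of 1 holds down the change of such genes. By the plain ratio of the FPKM values, 29 of the 35 genes stood at least 2-fold above GNP in glia, 19 of them Dpr genes and 10 Beat genes, against 32.9% of the 12303 genes above 0 in both libraries. The 7 genes that passed by the ratio alone were *dpr2*, *dpr3*, *dpr15*, *dpr16*, *dpr20*, *beat-IIIa* and *beat-IIIb*.

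The files do not state the depth. Low FPKM values were close to whole multiples of 1 read, which gave estimates of about 52.2 M mapped reads for glia and 63.7 M for GNP. At these depths the 35 genes had from 55 to 3457 reads in glia, with a median of 433, and from 19 to 2476 reads in GNP, with a median of 94. These estimates gave each ratio a 95% interval, from an exact binomial interval on the share of reads from glia. The intervals cover counting error only, and not the spread between embryo collections or libraries. Reads were estimated with the shortest transcript of each gene. Where a longer transcript was expressed, the read numbers are too low and the intervals too wide.

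**Figure D2:**
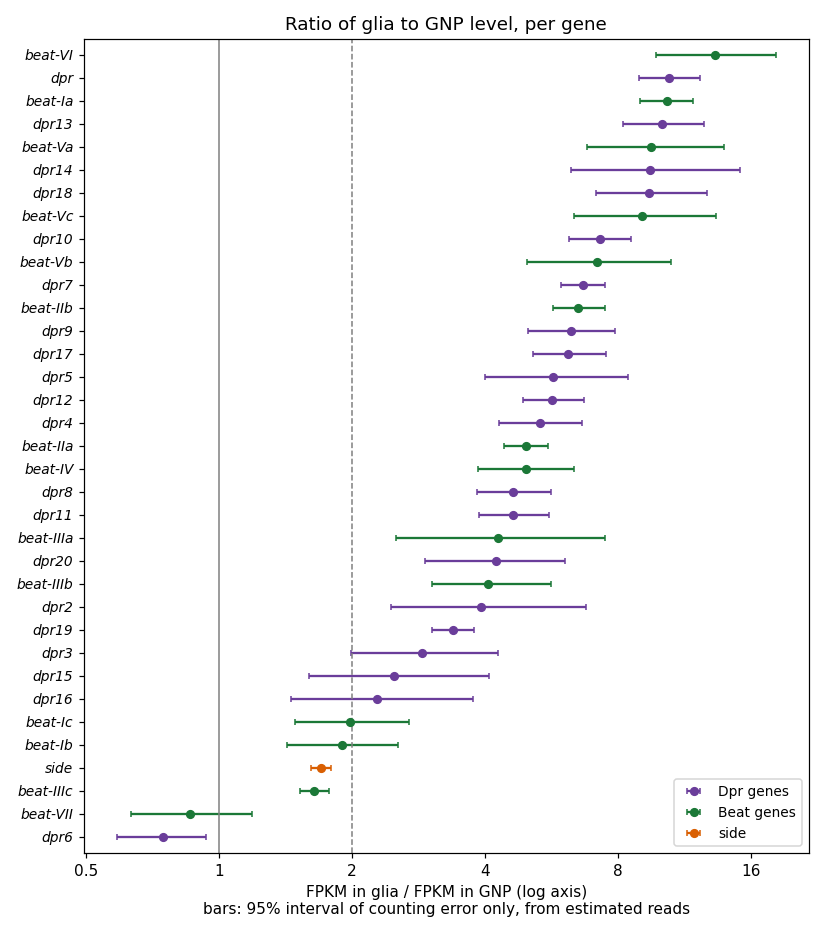
Each point is the FPKM in glia divided by the FPKM in GNP for 1 gene on a log axis, and the bars are 95% intervals of counting error from the estimated reads. The ratio was largest for *beat-VI* at 13.3, and the points of *beat-VII* and *dpr6* lie left of the line at 1, with the interval of *beat-VII* across it.

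The highest Dpr gene in either library was *dpr7*, which lies on the small chromosome 4. It stood at 33.4 FPKM in glia and 5.02 FPKM in GNP, a log2 change of 2.52 and an FPKM ratio of 6.66 with an interval of 5.93 to 7.49. It was the only Dpr gene above the level of the median gene in glia by more than 2-fold. The founding member *dpr*, named *dpr1* in later annotations and needed for the salt response of the proboscis, was at 11.1 FPKM in glia and 1.06 FPKM in GNP. Its ratio of 10.4, with an interval of 8.95 to 12.3, was the largest among the Dpr genes. In GNP *dpr19* was second to *dpr7*. It stood at 12.3 FPKM in glia and 3.63 FPKM in GNP, and its ratio of 3.38 was the lowest among the Dpr genes that passed the 2-fold limit on the log2 scale. Added up, the 20 Dpr genes reached 104 FPKM in glia and 18.6 FPKM in GNP.

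**Figure D3:**
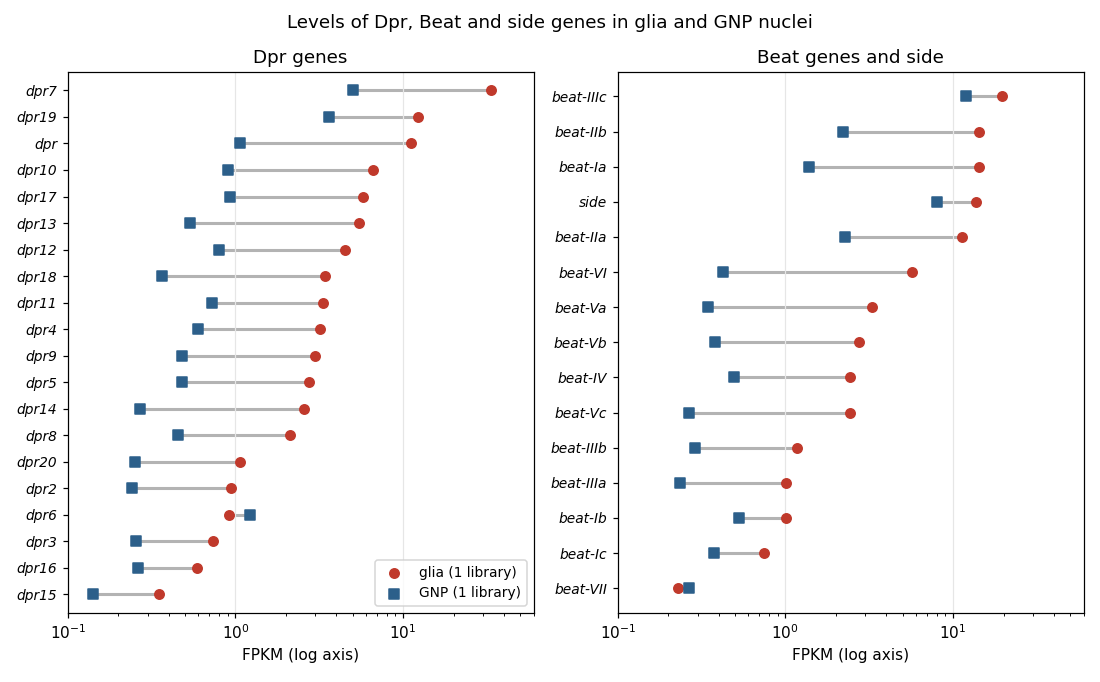
Each gene has a red circle for its FPKM in the glia library and a blue square for its FPKM in the GNP library, on a log axis, with genes ordered by the glia level. The glia value lies right of the GNP value for all genes but *dpr6* and *beat-VII*, and the length of a line is the ratio, which was 1.64 for *beat-IIIc* and 6.66 for *dpr7*.

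A middle group of Dpr genes was near or under 1 FPKM in GNP and between 2 and 7 FPKM in glia. The gene *dpr10*, whose protein on muscles and neurons binds DIP-alpha, was at 6.58 FPKM in glia and 0.90 FPKM in GNP, with a log2 change of 1.99. *dpr17* was at 5.75 FPKM in glia and 0.93 FPKM in GNP, with a change of 1.81. *dpr13* was at 5.4 FPKM in glia and 0.54 FPKM in GNP, and its ratio of 10.1 was close to that of *dpr*, with an interval of 8.2 to 12.6 that overlaps it.

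The gene *dpr12*, whose protein pairs with DIP-delta in the mushroom body, was at 4.52 FPKM in glia and 0.80 FPKM in GNP, with a log2 change of 1.62. *dpr11*, whose protein pairs with DIP-gamma in the visual system, was at 3.33 FPKM in glia and 0.72 FPKM in GNP, with a change of 1.33. *dpr18* was at 3.42 FPKM in glia and 0.36 FPKM in GNP, with a change of 1.70. Among these 3 genes *dpr18* had the lowest level in GNP and the largest ratio, 9.39, with an interval of 7.14 to 12.7, while the interval of *dpr11* was 3.87 to 5.58.

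*dpr4* was at 3.19 FPKM in glia and 0.60 FPKM in GNP, with a log2 change of 1.39, and in BDGP6 it shares 469 bases of exon with an antisense RNA on the other strand. *dpr5* was at 2.74 FPKM in glia and 0.48 FPKM in GNP, with a change of 1.34. *dpr9* was at 3.00 FPKM in glia and 0.48 FPKM in GNP, with a change of 1.44. These 3 genes had ratios between 5.33 and 6.27, and their intervals overlapped. The genes *dpr14* and *dpr8*, like *dpr18*, lie on the X chromosome. *dpr14* was at 2.55 FPKM in glia and 0.27 FPKM in GNP, with a change of 1.48 and a ratio of 9.45. Its 25 estimated reads in GNP gave a wide interval of 6.26 to 15.1. That estimate used its shortest transcript, of 1668 bases, and would be higher with its longest, of 3794 bases. *dpr8* was at 2.10 FPKM in glia and 0.45 FPKM in GNP, with a change of 1.09, the smallest of the 14.

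The remaining 6 Dpr genes did not pass 2-fold on the log2(FPKM + 1) scale, and 5 of them were under 0.3 FPKM in GNP. *dpr20* was at 1.07 FPKM in glia and 0.25 FPKM in GNP, and *dpr2* at 0.94 FPKM in glia and 0.24 FPKM in GNP. *dpr3* was at 0.74 FPKM in glia and 0.26 FPKM in GNP, *dpr16* at 0.59 FPKM in glia and 0.26 FPKM in GNP, and *dpr15* at 0.35 FPKM in glia and 0.14 FPKM in GNP. Their ratios lay between 2.28 for *dpr16* and 4.23 for *dpr20*, and the lower bounds of *dpr3*, *dpr15* and *dpr16* were under 2. *dpr16* shares 118 bases of exon with *cno* on the other strand in the BDGP6 annotation, and reads in such a stretch cannot be given to either gene where the library does not mark strand.

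The exception among the Dpr genes was *dpr6*. Its level was 0.92 FPKM in glia and 1.23 FPKM in GNP, a log2 change of -0.22 and an FPKM ratio of 0.75 with an interval of 0.59 to 0.94. In GNP *dpr6* came after *dpr7* and *dpr19*, and in glia it was among the 5 Dpr genes under 1 FPKM. Its protein, like that of *dpr10*, binds DIP-alpha.

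Among the Beat genes, *beat-Ia* had the largest log2 change. It stood at 14.2 FPKM in glia and 1.38 FPKM in GNP, a log2 change of 2.68 and an FPKM ratio of 10.3 with an interval of 8.98 to 11.9. Its genomic neighbours *beat-Ib* and *beat-Ic* were near the floor of the family in glia. *beat-Ib* was at 1.0 FPKM in glia and 0.53 FPKM in GNP, with a ratio of 1.90, and *beat-Ic*, which shares 42 bases of exon with an annotated transposon, was at 0.74 FPKM in glia and 0.38 FPKM in GNP, with a ratio of 1.98. The intervals of these ratios, 1.43 to 2.54 and 1.49 to 2.69, do not reach that of *beat-Ia*.

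*beat-IIa* and *beat-IIb*, whose proteins bind the Side paralog Side-IV, had similar levels in each library. *beat-IIa* was at 11.2 FPKM in glia and 2.27 FPKM in GNP, with a log2 change of 1.90. *beat-IIb* was at 14.3 FPKM in glia and 2.20 FPKM in GNP, with a change of 2.26. The interval of the ratio was 4.43 to 5.56 for *beat-IIa* and 5.71 to 7.47 for *beat-IIb*, so counting error alone leaves a gap between them.

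The 3 *beat-V* genes, whose proteins bind Side-VI, were under 0.4 FPKM in GNP and between 2.4 and 3.3 FPKM in glia. *beat-Va* was at 3.27 FPKM in glia and 0.34 FPKM in GNP, *beat-Vb* at 2.75 FPKM in glia and 0.38 FPKM in GNP, and *beat-Vc* at 2.43 FPKM in glia and 0.27 FPKM in GNP. Their ratios of 9.51, 7.19 and 9.07 had intervals that overlap, and the GNP values rest on 35 to 37 estimated reads. *beat-VI* was at 5.68 FPKM in glia and 0.43 FPKM in GNP, and its ratio of 13.3, with an interval of 9.78 to 18.2, was the largest of the 35 genes. *beat-IV* was at 2.44 FPKM in glia and 0.49 FPKM in GNP, with a log2 change of 1.20.

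The *beat-III* genes did not share a level. *beat-IIIc* was the highest Beat gene in both libraries, at 19.7 FPKM in glia and 12.0 FPKM in GNP, with a log2 change of 0.67 and an FPKM ratio of 1.64. *beat-IIIb* was at 1.18 FPKM in glia and 0.29 FPKM in GNP, with a change of 0.76 and an FPKM ratio of 4.07. *beat-IIIa* was at 1.01 FPKM in glia and 0.24 FPKM in GNP, with a change of 0.70 and an FPKM ratio of 4.28. The value of *beat-IIIa* is uncertain, because later annotations join it with CG42757, which has values of its own, 3.53 FPKM in glia and 0.45 FPKM in GNP. In BDGP6 its exons are also shared with CG34106 on the same strand. *beat-VII* was the lowest Beat gene in glia, at 0.23 FPKM in glia and 0.27 FPKM in GNP. Its log2 change was -0.04, and the interval of its ratio, 0.63 to 1.19, holds 1.

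The gene *side* was among the highest of the 35 in GNP, behind *beat-IIIc* alone. It stood at 13.6 FPKM in glia and 8.0 FPKM in GNP, with a log2 change of 0.70 and an FPKM ratio of 1.71, whose interval of 1.62 to 1.80 stays under 2. Its level in glia was close to those of *beat-Ia* and *beat-IIb*, while in GNP it was above both. The values also hold a gene written Side with a capital, a name that the RefSeq table lists for both *side* and the bHLH gene *Sidpn*, and it was not counted here.

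Neighbours in the genome did not always share a level. *dpr6* and *dpr10* lie next to each other on chromosome 3L, from 9974651 to 10139360 on the plus strand and from 10147454 to 10186108 on the minus strand in BDGP6, with 0 protein-coding genes between them. The level of *dpr6* was 0.14 times that of *dpr10* in glia and 1.36 times that of *dpr10* in GNP, so their order turned round. The other pairs below are near each other but not all adjacent. On 3R *dpr15* and *dpr17* are 27.4 kb apart with 1 protein-coding gene between them. *dpr15* was at 0.061 times the level of *dpr17* in glia and 0.15 times in GNP. On 2L *beat-Ia* (16049965 to 16081684) and *beat-Ic* (16000291 to 16041703), both on the plus strand, are 8.26 kb apart with 2 protein-coding genes between them. *beat-Ia* was at 19.1 times the level of *beat-Ic* in glia and 3.67 times in GNP. Other neighbours kept nearly equal levels. On 3R *dpr4* and *dpr5* have 0 protein-coding genes between them, and *dpr4* was at 1.17 times the level of *dpr5* in glia and 1.25 times in GNP. Also on 3R, *beat-IIa* and *beat-IIb* are 55.0 kb apart with 3 protein-coding genes between them. *beat-IIa* was at 0.78 times the level of *beat-IIb* in glia and 1.03 times in GNP. The 35 genes are spread over 6 chromosomes or chromosome arms, and all coordinates refer to BDGP6, whereas the submitters' processing notes name dm3.

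The partner families were searched for under their later names, DIP and side, through the synonyms in the RefSeq gene names, since the values carry CG numbers for them. This gave 10 DIP genes and 7 paralogs of *side*. Of the DIP genes 5 stood at least 2-fold higher in glia and 1 at least 2-fold lower, with a median log2 change of 1.05. Over all genes 21.2% stood at least 2-fold higher and 16.4% at least 2-fold lower. The count of 5 was 4 when centred on the median gene and 6 under upper quartile scaling. The highest in glia was DIP-epsilon (CG42368), at 6.68 FPKM in glia and 1.16 FPKM in GNP. The largest ratio was that of DIP-zeta (CG31708), 15.3, at 3.14 FPKM in glia and 0.20 FPKM in GNP. DIP-kappa (CG31814) was at 2.49 FPKM in glia and 0.29 FPKM in GNP, DIP-gamma (CG14521) at 2.05 FPKM in glia and 0.26 FPKM in GNP, and DIP-eta (CG14010) at 1.63 FPKM in glia and 0.22 FPKM in GNP. These are the 5 that passed the limit.

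The gene that went the other way was DIP-alpha (CG32791), the partner of Dpr6 and Dpr10. It was at 1.25 FPKM in glia and 3.95 FPKM in GNP, a log2 change of -1.14 and an FPKM ratio of 0.32 with an interval of 0.27 to 0.37. It was the highest DIP gene in GNP. In BDGP6 its exons share 264 bases in all with CG2875 on the same strand and *ppk8* on the other, and exons of DIP-gamma, DIP-theta and DIP-zeta also overlap other genes. Of its partners, *dpr6* was also lower in glia, within 2-fold, and *dpr10* was 7.28-fold higher. DIP-theta (CG31646) was at 1.84 FPKM in glia and 0.42 FPKM in GNP, with a change of 0.998, just under the limit. DIP-beta (CG42343) was at 1.06 FPKM in glia and 0.45 FPKM in GNP, DIP-delta (CG34391) at 0.96 FPKM in glia and 0.37 FPKM in GNP, and DIP-iota (CG11320) at 0.51 FPKM in glia and 0.30 FPKM in GNP. The interval of the ratio of DIP-iota, 0.93 to 3.03, holds 1. For the pair of DIP-delta and Dpr12, the ratio was 2.6 for DIP-delta and 5.68 for *dpr12*. Their intervals, 1.39 to 5.04 and 4.87 to 6.69, overlap, and DIP-delta rests on 16 estimated reads in GNP. That estimate used its shortest transcript, of 882 bases, while its longest has 4735 bases. With a longer transcript the reads would be more and the interval narrower, so the overlap depends on this choice. For the pair of DIP-gamma and Dpr11 the ratio was 7.80 for DIP-gamma, with an interval of 5.70 to 10.7. It was 4.62 for *dpr11*, with an interval of 3.87 to 5.58.

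**Figure D4:**
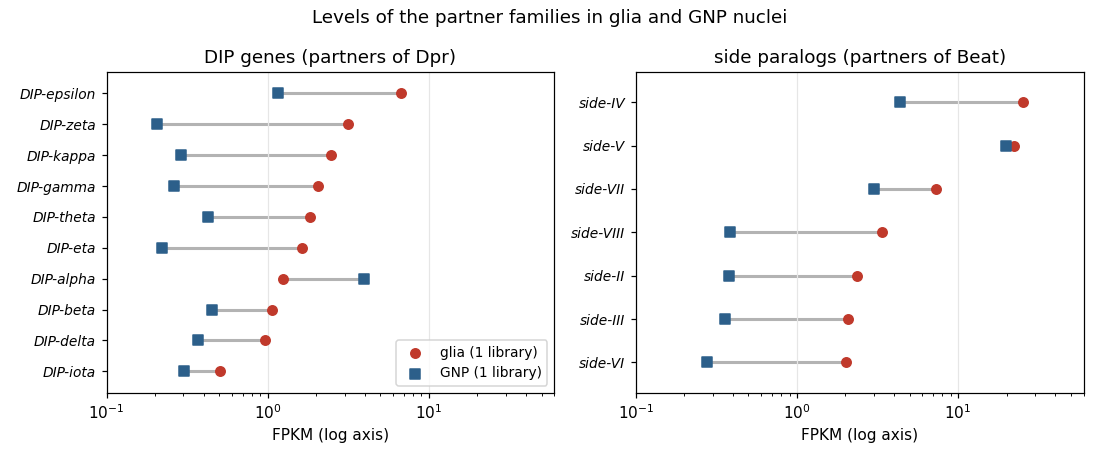
Red circles give the FPKM in the glia library and blue squares the FPKM in the GNP library for 10 DIP genes and 7 *side* paralogs, on a log axis and ordered by the glia level. DIP-alpha is the only gene whose GNP value, 3.95 FPKM, lies right of its glia value, 1.25 FPKM, and *side-V* is high in both libraries.

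Of the 7 *side* paralogs 6 were at least 2-fold higher in glia and 0 at least 2-fold lower, with a median log2 change of 1.24. The shares over all genes were 21.2% and 16.4%. The count of 6 was 5 under TPM and 5 when centred on the median gene. *side-IV* (CG14372) was at 25.4 FPKM in glia and 4.33 FPKM in GNP, a ratio of 5.86, beside ratios of 4.95 and 6.51 for *beat-IIa* and *beat-IIb*, whose proteins bind Side-IV. Its exons overlap antisense RNAs of BDGP6. *side-VI* (CG34114), the partner of the Beat-V proteins, was at 2.02 FPKM in glia and 0.28 FPKM in GNP, a ratio of 7.30. *side-VIII* (CG12484) was at 3.35 FPKM in glia and 0.38 FPKM in GNP, *side-II* (CG42313) at 2.35 FPKM in glia and 0.38 FPKM in GNP, and *side-III* (CG34113) at 2.08 FPKM in glia and 0.36 FPKM in GNP. *side-VII* (CG12950) was at 7.25 FPKM in glia and 3.02 FPKM in GNP, with a log2 change of 1.04. *side-V* (CG34371) was at 22.2 FPKM in glia and 19.7 FPKM in GNP, with a change of 0.16, and was the highest of the 52 genes of both systems in GNP.

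Most neuron and muscle markers were also higher in glia. Of the 10 glia markers 8 had a higher FPKM in glia. The lists of the remaining cell types were mixed or mostly lower. The part of other cell types in the changes was not tested. Each count below stands beside shares of 21.2% at least 2-fold higher and 16.4% at least 2-fold lower over all genes. Of 14 neuron markers 10 were at least 2-fold higher in glia and 0 lower. Their summed level was 666 FPKM in glia and 173 FPKM in GNP. The pan-neuronal gene *fne* was at 327 FPKM in glia and 14.7 FPKM in GNP, while *elav* was at 44.2 FPKM in glia and 76.9 FPKM in GNP. Of 11 muscle markers 10 were at least 2-fold higher in glia, with a summed level of 6867 FPKM in glia and 1035 FPKM in GNP, and *Mef2* was at 43.7 FPKM in glia and 58.3 FPKM in GNP. The glial regulator *repo* was at 32.0 FPKM in glia and 3.84 FPKM in GNP. Of 10 glia markers 5 were at least 2-fold higher in glia and 0 at least 2-fold lower. Of 10 neural progenitor markers 7 were at least 2-fold lower in glia. Of 6 plasmatocyte markers 1 was at least 2-fold higher, *Pxn*, at 55.4 FPKM in glia and 10.2 FPKM in GNP. On the log2(FPKM + 1) scale 0 were at least 2-fold lower. The low genes *Hml* and *NimC1* passed 2-fold by the plain ratio alone, in opposite directions. *Hml* was at 0.12 FPKM in glia and 0.95 FPKM in GNP, a ratio of 0.13. *NimC1* was at 2.03 FPKM in glia and 0.65 FPKM in GNP, a ratio of 3.12. *srp* was at 28.5 FPKM in glia and 45.2 FPKM in GNP, and *crq* at 21.9 FPKM in glia and 29.5 FPKM in GNP. *eater* was listed at 0 in glia and at 0.056 FPKM in GNP. Of 5 markers of trachea and epidermis 2 were higher and 1 was lower. Outside the plasmatocyte list, no marker was at 0 in either library. Of all 13623 genes, 1320 were at 0 in at least 1 library.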

How the data were processed

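Nuclear RNA was sequenced by the authors as single-end reads of 49 bases and mapped with TopHat (version 1.3.1) to FlyBase transcripts, on the build dm3 per the submitters' processing notes. Cuffdiff (version 1.3.0) then gave the deposited FPKM value of each gene, a unit that the paper's methods call RPKM. The authors also deposited a p-value and a call for each gene from the comparison of the libraries, which were not used.

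The change of a gene was log2((FPKM in glia + 1)/(FPKM in GNP + 1)), and a gene was counted as changed at 2-fold, without a test. Depth was estimated from genes with 1 transcript of at least 600 bases in BDGP6, for a fragment length of 200 bases, as the value at which most low values lay within 0.1 of a whole read, 84.3% of 718 in glia and 84.9% of 710 in GNP. Reads of a gene used its shortest transcript. In BDGP6, 13465 of the 13623 genes were matched by symbol or synonym. The markers *nSyb*, *ChAT* and *NimC1* were matched by older symbols, and *zyd* was not used.

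All 35 genes and the partner families are named, while most markers are given only as counts. The genes and lists were chosen with earlier results of these data known. Counts and intervals were run on simulated data as a check of the calculation only. Whether they would hold in further embryo collections or libraries was not tested. Alternatives were a pseudocount of 0.1, TPM, upper quartile scaling, centring on the median gene, only genes averaging 1 FPKM or more, fold limits of 1.5 and 4 and, chosen after the values were seen, no pseudocount. Protein sequences were not analysed here, so the planned comparison of protein identity was not made. The software was pandas 2.3.3, numpy 2.4.6, matplotlib 3.10.9 and scipy 1.17.1, run under Python 3.11.15.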

Additional observations from a re-analysis of the deposited data

How the results depend on the processing

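Since each cell type has 1 library, none of the alternatives shows whether a difference would be seen again, and the depths are estimates from low values. No paired analysis was possible because there are no replicates to match or to leave out. Of the 35 genes, 0 changed the sign of the log2 change under any alternative run. The call changed for 5 with a pseudocount of 0.1, for 7 without a pseudocount, for 1 when centred on the median gene, and for 0 under TPM, upper quartile scaling or a mean of at least 1 FPKM, where 25 of the 35 genes were left. Of the partner families, 5 of 7 *side* paralogs were higher under TPM and when centred. Of the DIP genes 4 were higher when centred and 6 under upper quartile scaling. Of all 13623 genes, 2550 were higher under TPM, 2631 when centred and 3282 under upper quartile scaling.

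A limit of 4-fold left 3 Dpr genes, 3 Beat genes, 6 of the 35 genes, 0 DIP genes, 1 *side* paralog and 6 muscle markers higher in glia, with 0 DIP genes lower, against 1153 higher and 614 lower of all genes, since fewer genes pass a higher limit. A pseudocount of 0.1 raised the median log2 change to 2.26 for the Dpr genes and 2.24 for the 35 genes. It gave 8 higher DIP genes, against 3938 of all 13623 genes. Without a pseudocount the medians of the Dpr genes and the 35 genes were 2.46 and 2.31, and that of the Beat genes was 2.31. Again 8 DIP genes were higher, against 4045 of the 12303 genes above 0 in both libraries. These rises follow from the smaller pseudocount, because most Dpr, Beat and DIP genes are under 1 FPKM in GNP.

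The median log2 change of all genes was 0.10 with a pseudocount of 0.1, 0.00 under TPM, 0.10 under upper quartile scaling, -0.077 when centred, 0.11 for genes averaging 1 FPKM or more and 0.21 without a pseudocount. For genes averaging 5 FPKM or more, the scalings moved the median by -0.25 under TPM, 0.18 under upper quartile scaling and -0.11 when centred. Under TPM 2550 of all genes were higher and 2780 lower, while 22 of the 35 genes were higher and 0 lower. The neuron marker *elav* counted as 1 lower gene under TPM and at 1.5-fold.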

Other observations

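The Dpr, Beat and *side* genes are long. In BDGP6 their spans run from 3.74 to 164.7 kb with a median of 32.8 kb, where the median span of the matched genes is 2.17 kb. Of the 980 genes of at least 20 kb above 0 in both libraries, 46.3% had a ratio of at least 2, and 17 of the 23 Dpr, Beat and *side* genes of that length did. Among the 35 genes the rank correlation of span with the ratio was -0.31, and over 12156 genes it was 0.04. Genes are not independent replicates, and all values share the same 2 libraries.

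The order of the 35 genes was largely kept between the libraries, with a rank correlation of 0.82 between their glia and GNP levels, against 0.87 over all genes. The gene *cDIP* (CG10824), whose secreted product binds several Dpr and DIP proteins, was at 0.28 FPKM in glia and 0.33 FPKM in GNP.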
